A study of Mus musculus with 24 samples.

Results

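The response of mouse skeletal muscle to polyunsaturated long-chain fatty acids of the n-3 series (n-3 LC-PUFA) was described from the 16 arrays of 2 diet groups, out of 24 arrays in the series. The control group (cHF, 8 mice) ate a purified fat-rich diet, of which 35% by weight was lipid, mainly corn oil, and in the other group (cHF+F, 8 mice) a concentrate with 46% DHA and 14% EPA took the place of 15% of these lipids. All were male C57BL/6N mice, 3 months old at the start and kept in pairs in a cage, which ate their diet for 8 weeks, were fasted for 10 hours in the light phase and were given low-fat Chow overnight before the gastrocnemius was taken in the morning. A group that received 10 mg of the thiazolidinedione rosiglitazone per kg of the high-fat diet (cHF+ROSI, 8 mice) entered the model and was used here only to see where the cHF+F response differed from it. Each array held the Cy5-labelled RNA of 1 mouse together with a Cy3-labelled pool of the animals, the same pool on every array. Hence muscles dissected in the re-fed state, and not those of mice on the high-fat diets themselves, were measured.

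DHA and EPA enter membrane phospholipids, are oxidised, give rise to lipid mediators and act on gene expression as ligands of peroxisome proliferator-activated receptors (PPARs) and as inhibitors of the maturation of SREBP-1, the regulator of lipogenesis. In skeletal muscle, PPAR-responsive genes such as Pdk4 rise during fasting, when muscle burns fatty acids, and decline on re-feeding, when insulin directs it to glucose. Gastrocnemius consists mainly of fast fibres with a smaller part of slow, oxidative fibres, and its tissue also holds capillaries, connective tissue, nerves and resident macrophages.

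Expression was the log2 ratio of the mouse over the pool (Cy5 over Cy3), after background correction and loess normalization within each array, so that 0 is the level of the pool and a difference of 1 is a doubling. Each of 8 slides carried 1 array of every group, and the slide, which is also the replicate number, was kept as a block in the limma model. A probe was called at a Benjamini-Hochberg adjusted p under 0.05 over all 15958 probes kept, and unadjusted p-values under 0.05 were counted in each direction as a description. Functions were described over 10566 genes with their brightest probe, in 42 lists by function and 10 lists of cell type markers. A diet always took the same position within its slide, so position and diet cannot be told apart. Arrays of slides 1 to 3 were in general dimmer than the rest, and between 30.4% and 61.3% of the Cy5 spots of the 16 arrays were well above background. An array of the cHF+ROSI group stood apart with 91.1%, and it enters the shared estimate of the spread. Among the markers, 15 of 15 fast fibre genes and 13 of 13 genes of excitation-contraction coupling were bright enough to be tested, against 0 of 15 lymphocyte genes and 3 of 12 spermatid genes, and 10 of 11 Schwann cell genes and 16 of 28 hepatocyte genes were tested as well.

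Differences between cHF+F and cHF were small for most genes. The counts of genes and probes depended on the slide block and on the normalization. Of 15958 probes, 6 were called (0.0376%), and they represented 4 of 10566 genes (0.0379%), with the endothelial genes Cldn5 and Lyl1 lower and Sec14l1 and Fbxl22 higher in cHF+F. Without the slide block no probe was called, and the probes at an unadjusted p under 0.05 numbered 639 lower and 455 higher instead of 1028 (6.44%) and 905 (5.67%). At the level of genes, 810 were lower (7.67%) and 537 higher (5.08%) at an unadjusted p under 0.05, of which 99 and 54 also differed by at least 1.2-fold. Over all genes the median difference was -0.0066, the middle range between the quartiles was -0.060 to 0.048, and 53.4% of genes had a value below 0. The median standard error of a gene was 0.058. A fit to the 16 arrays alone called no probe, with 1338 lower and 1225 higher at an unadjusted p under 0.05. Median centring in place of loess also called no probe and left 211 lower and 74 higher. In Cy5 alone 4.22% of genes were lower and 2.36% higher at an unadjusted p under 0.05.

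Lists in which many genes were lower were those of endothelial cells, immediate early genes, interferon-induced genes, slow fibres, fatty acid uptake with the carnitine shuttle and PPAR-responsive genes. Between 38.5% and 58.3% of the tested genes in each of these 6 lists were lower at an unadjusted p under 0.05, beside the 7.67% of all genes. Lists and members were chosen with earlier results of these data known, and they hold leading genes such as Cldn5, Lyl1 and Rtp4. The shares are therefore a description and not a test of the lists. Lists with more genes higher than lower at an unadjusted p under 0.05 had smaller shares of such genes. Higher were 25% of neuromuscular junction genes (2 of 8) and 21.1% of the genes for AMPK and PPAR coactivators. The shares were 20% for heat shock chaperones and 18.2% for cholesterol synthesis genes, beside the 5.08% of all genes. Lower at such a p were 1 of 8, 2 of 19, 1 of 20 and 0 of 22 genes of these lists, in the same order. Of the neuromuscular junction genes 4 had a value below 0 and 4 above. In Cy5 alone 1 of them was lower and 0 were higher at an unadjusted p under 0.05. There 1 of the genes for AMPK and PPAR coactivators was higher and 2 were lower. Heat shock chaperones had 3 higher and 1 lower in Cy5 alone, and cholesterol synthesis genes 3 higher and 0 lower.

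**Figure D1:**
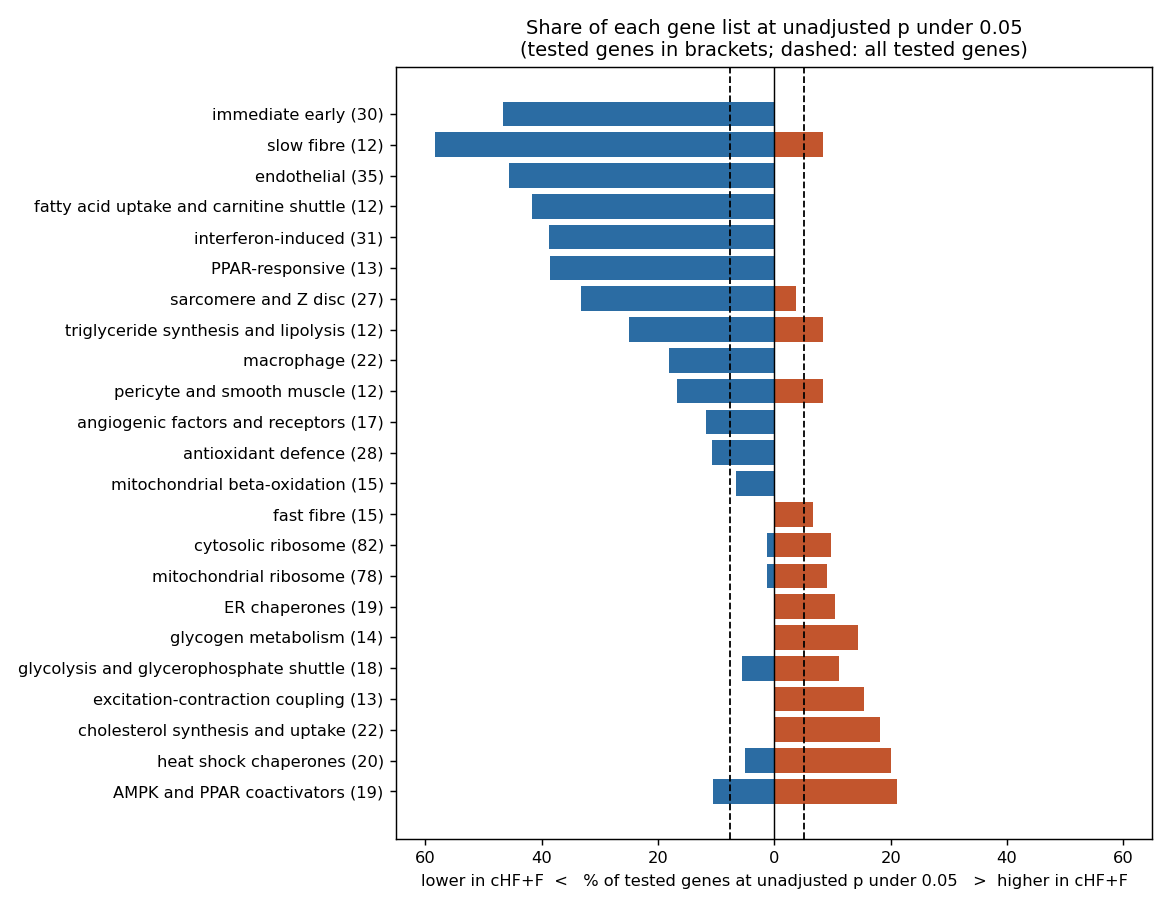
Share of the tested genes of 23 selected gene lists out of 52 with an unadjusted p under 0.05 in cHF+F against cHF, lower to the left and higher to the right, in percent, with the number of tested genes in brackets and dashed lines at the shares of all genes (7.67% and 5.08%). Lists not drawn include those of the neuromuscular junction, NAD and polyamine metabolism, fatty acid synthesis and the TCA cycle. The bars of the immediate early, slow fibre, endothelial, fatty acid uptake, interferon-induced and PPAR-responsive lists reach from 38.5% to 58.3% on the lower side.

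Of the 4 called genes, Cldn5, which encodes the tight junction protein claudin-5 of endothelial cells, differed most. Its probe lies at chr16:18691516-18691575 (mouse build mm8). The log2 ratio of Cldn5 was -0.19 at the lowest, 0.03 at the median and 0.38 at the highest in the 8 cHF mice, and -1.28, -0.64 and -0.14 in the 8 cHF+F mice. The groups overlapped by a narrow margin, and the cHF+F mouse was the lower one on 8 of 8 slides. Cldn5 fell by 0.65 on the log2 scale (SE 0.09, 1.57-fold, adjusted p = 0.0146), and by 0.85 in Cy5 alone. Without the slide block its adjusted p was 0.121.

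Lyl1, a helix-loop-helix transcription factor of blood and endothelial cells (chr8:87594737-87594796), ranged from -0.09 over a median of 0.16 to 0.34 in cHF mice and from -0.34 over -0.12 to -0.06 in cHF+F mice. Again the groups touched at their edges, and cHF+F was lower on 8 of 8 slides. Lyl1 fell by 0.28 (SE 0.05, adjusted p = 0.0282, and 0.274 without the block).

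Sec14l1, a member of a family of lipid-binding proteins (chr11:116974875-116974934), ranged from -0.23 over -0.12 to 0.06 in cHF mice and from 0.05 over 0.17 to 0.27 in cHF+F mice. Only the edges of the groups overlapped, and 3 of 3 probes of the gene were called. Sec14l1 rose by 0.27 (SE 0.04, adjusted p = 0.0185, and 0.0774 without the block), while in Cy5 alone the difference was 0.12.

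Fbxl22, an F-box protein found at the Z disc of muscle (chr9:66312232-66312291), ranged from -0.31 over -0.02 to 0.13 in cHF mice and from 0.10 over 0.32 to 0.92 in cHF+F mice. It was higher in cHF+F on 8 of 8 slides and rose by 0.43 (SE 0.08, adjusted p = 0.0362, and 0.121 without the block). The signal of its probe was low, at 4.17 times the background in Cy5.

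**Figure D2:**
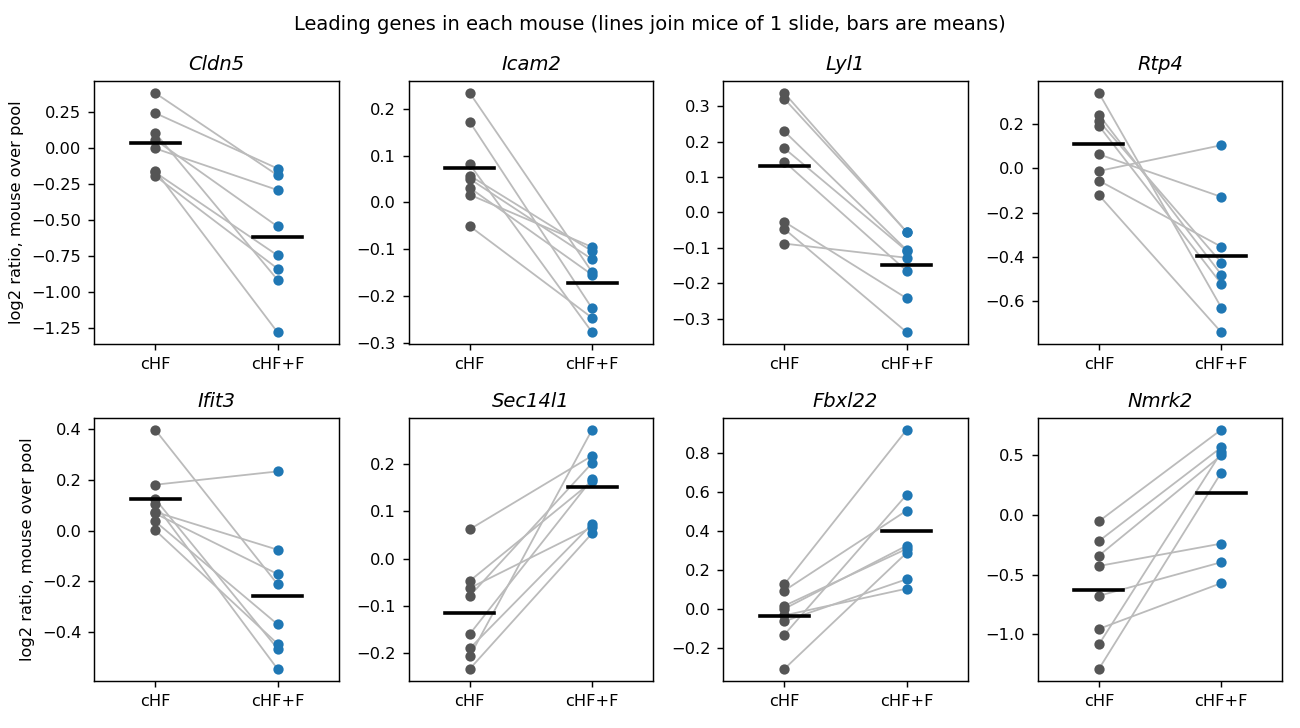
Log2 ratio of the mouse over the pool for 8 genes in the 8 cHF and 8 cHF+F mice, with points for single mice, grey lines that join the mice of 1 slide and black bars at the group means. Cldn5, Icam2, Lyl1, Rtp4 and Ifit3 lie lower and Sec14l1, Fbxl22 and Nmrk2 higher in cHF+F, and the groups of Icam2 do not overlap.

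The 8 mice of a diet lay apart from the 8 of the other, with no overlap, for 7 genes. Of these 6 were lower in cHF+F (0.0568% of all genes), namely Icam2, Tcf15, Kcnk6, Rnf31, Wbp1 and Cbr4, and 1 was higher (0.00946%), namely Sobp. Rnf31, Wbp1 and Cbr4 were named after their values had been seen. None of the 7 was called. Kcnk6, a potassium channel of the membrane, was lower by 0.23 in the ratio and higher by 0.02 in Cy5 alone. Sobp, the homologue of a protein that binds the developmental factor sine oculis, was between -0.27 and 0.13 in cHF mice and between 0.17 and 0.53 in cHF+F mice. It had a difference of 0.43 (SE 0.08, adjusted p = 0.0711). Within slides, 250 genes (2.37%) were lower and 176 (1.67%) higher in the cHF+F mouse on 8 of 8 slides.

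Other genes with small p-values belonged to diverse functions. Lower in cHF+F were Tmem88, an inhibitor of Wnt signalling, by 0.24, Tppp3, which promotes tubulin polymerization, by 0.27, Serpinb6b, a protease inhibitor, by 0.28, and Trnau1ap, which serves selenocysteine incorporation, by 0.24. Higher in cHF+F were Ppp1r14b, an inhibitor of protein phosphatase, by 0.29, Med26, a subunit of Mediator, by 0.28, Car14, a membrane carbonic anhydrase, by 0.36, Mapkapk3, a kinase downstream of p38, by 0.23, and Akap1, which anchors protein kinase A to mitochondria, by 0.19. Their adjusted p-values were between 0.067 and 0.112.

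Genes of endothelial cells were lower as a group in the n-3 LC-PUFA mice. Of 36 listed markers 35 were tested, 34 had a value below 0, 16 were lower and 0 higher at an unadjusted p under 0.05, and the median difference of the list was -0.12. These markers were listed with earlier results of these data known, so the counts and the list means are a description. Besides Cldn5 and Lyl1, which are members, Icam2, an adhesion molecule, and Tcf15, a transcription factor of capillary endothelium, had the smallest p-values. Icam2 lay between -0.05 and 0.23 with a median of 0.05 in cHF mice, and between -0.28 and -0.10 with a median of -0.15 in cHF+F mice. Tcf15 lay between -0.19 and 0.04 in cHF mice and between -0.63 and -0.21 in cHF+F mice. The groups did not overlap for either gene. Icam2 differed by -0.25 (SE 0.05, adjusted p = 0.067) and Tcf15 by -0.32 (SE 0.07, adjusted p = 0.112), and both were lower on 8 of 8 slides. The defining marker Pecam1 differed by only -0.12 (SE 0.05, adjusted p = 0.369), with overlapping groups.

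The mean of the endothelial list in single mice was 0.01 ± 0.07 (SD, n = 8) in cHF, -0.14 ± 0.05 (SD, n = 8) in cHF+F and -0.04 ± 0.09 (SD, n = 8) in cHF+ROSI. In cHF+F the lowest mouse was at -0.26 and the highest at -0.09, just below the lowest cHF mouse at -0.08. The median within-slide difference was below 0 on 8 of 8 slides, between -0.28 and -0.03, and the list had a median of -0.16 in Cy5 alone, where 13 genes were lower at an unadjusted p under 0.05. Other vessel genes were described in the same way. Of 17 tested angiogenic factors and receptors 15 had a value below 0, with a median of -0.08. At an unadjusted p under 0.05, 2 of the 17 were lower (11.8%), and 1 in Cy5 alone. Of 12 markers of pericytes and smooth muscle 2 were lower (16.7%) and 1 was higher (8.33%), with a median of -0.03. In Cy5 alone 1 of these markers was lower and 1 higher. Of all genes 7.67% were lower and 5.08% higher. In these extracts of whole muscle, fewer cells of a type and less of its RNA per cell cannot be told apart.

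**Figure D3:**
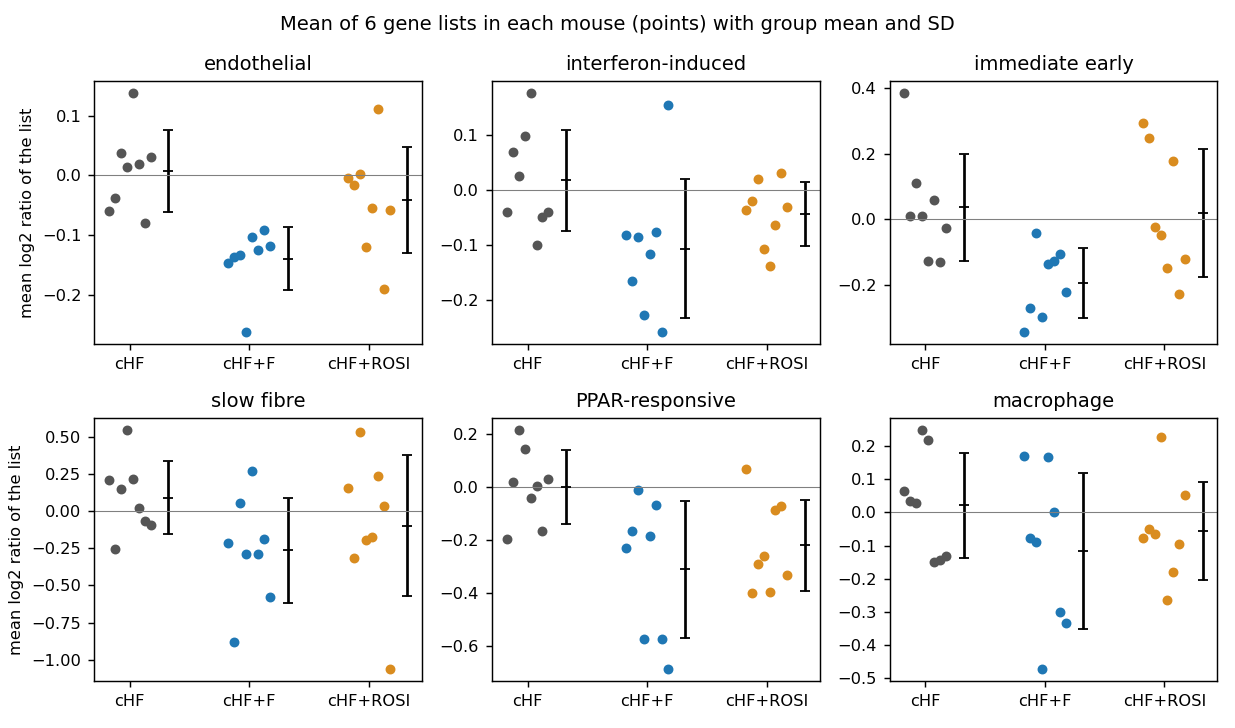
Mean log2 ratio of 6 gene lists in each mouse of the 3 diet groups (coloured points), with the group mean and SD as a black mark and bar at the right of each group. The endothelial means of the cHF+F mice, from -0.26 to -0.09, lie below those of the cHF mice, whereas the other 5 lists overlap between these groups.

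Interferon-induced genes, which form the antiviral response downstream of STAT and IRF factors, were lower in most cHF+F mice. Of 47 listed genes 31 were tested, 26 had a value below 0 and 12 were lower and 0 higher at an unadjusted p under 0.05, with a median of -0.11 in the ratio and -0.14 in Cy5 alone. Many of these genes carry in their promoter the interferon-stimulated response element. The letters GAAANNGAAA were searched on both strands of the 300 bases from 250 before to 50 after the start of each RefSeq gene (GRCm38.p6). They were present in 3.99% of 27025 promoters and in 12 of 22 listed genes with a promoter in the table (54.5%). They were found in 6 of 10 of the genes that were lower at an unadjusted p under 0.05 and in 6 of 12 of the other tested genes. The 250 bases before the start of Ifit3 and Trim30a, both lower, are given here as examples, 5′ to 3′ on the strand of the gene, with the matches in capitals.
Ifit3, chr19:34583279-34583528, plus strand: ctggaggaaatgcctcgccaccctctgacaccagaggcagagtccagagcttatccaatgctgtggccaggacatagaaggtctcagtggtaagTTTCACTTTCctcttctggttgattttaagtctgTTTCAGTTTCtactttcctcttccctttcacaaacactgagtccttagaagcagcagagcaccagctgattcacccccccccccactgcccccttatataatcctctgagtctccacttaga
Trim30a, chr7:104465194-104465443, minus strand: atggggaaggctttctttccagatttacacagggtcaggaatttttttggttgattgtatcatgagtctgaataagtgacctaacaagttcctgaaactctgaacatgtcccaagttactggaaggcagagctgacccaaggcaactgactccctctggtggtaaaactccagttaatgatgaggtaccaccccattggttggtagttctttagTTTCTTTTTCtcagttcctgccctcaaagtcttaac

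The genes of the list with the smallest p-values were Rtp4 and Ifit3. Rtp4, a receptor transporter that interferon induces, lay between -0.12 and 0.34 with a median of 0.13 in cHF mice, and between -0.74 and 0.10 with a median of -0.45 in cHF+F mice. Ifit3, an antiviral protein whose promoter holds 2 matches, lay between 0.00 and 0.40 in cHF mice and between -0.54 and 0.23 in cHF+F mice. The groups overlapped for both genes, and both were lower in cHF+F on 7 of 8 slides. Rtp4 differed by -0.50 (SE 0.10, adjusted p = 0.0711) and Ifit3 by -0.38 (SE 0.07, adjusted p = 0.067). A near-identical copy of Ifit3 exists in the mouse, and its probe may bind both. Ifih1, a sensor of viral RNA, was lower by 0.19, and Trim30a by 0.16 in the ratio, although it was higher by 0.06 in Cy5 alone.

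The interferon-induced list was not lower throughout. Its median within-slide difference was below 0 on 6 of 8 slides and was 0.19 on slide 8, and the list mean of 1 cHF+F mouse, at 0.15, was close to the highest cHF mouse at 0.18. Macrophage markers had lower values as well. Of 28 macrophage genes 22 were tested, 22 had a value below 0 and 4 were lower at an unadjusted p under 0.05, with a median of -0.15 and within-slide medians from -0.64 on slide 4 to 0.16 on slide 6. C1qc, a chain of complement C1q, differed by -0.33 and the defining marker Cd68 by -0.07. The list mean in single mice was between -0.15 and 0.25 in cHF and between -0.47 and 0.17 in cHF+F. Of 6 tested MHC class II genes 0 reached an unadjusted p under 0.05, and lymphocyte markers were too dim to be tested. The part of macrophages in the interferon-induced values was not tested.

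Immediate early genes, which cells induce within minutes of a stimulus, had lower values in cHF+F when the muscle was taken. Of 34 listed genes 30 were tested, 25 had a value below 0, 14 were lower and 0 higher at an unadjusted p under 0.05, and the median was -0.25 in the ratio and -0.27 in Cy5 alone. Fos, a subunit of the AP-1 factor, lay between -0.47 and 1.87 with a median of 0.33 in cHF mice, and between -1.20 and 0.19 with a median of -0.33 in cHF+F mice. The spread of Fos among cHF mice was wider than the difference between the groups, which was -0.81 in the model (SE 0.25, adjusted p = 0.196). Jun, the partner of Fos, varied less, between -0.02 and 0.40 in cHF and between -0.26 and 0.09 in cHF+F, and differed by -0.29 (SE 0.07, adjusted p = 0.126). Jun and the stress-response gene Gadd45b (-0.38) were lower on 8 of 8 slides, and Socs3, the feedback inhibitor of cytokine signalling (-0.47), on 7 of 8. The transcription factor Cebpb (-0.33), which is not in this list but among the ATF4-responsive genes described below, was also lower on 8 of 8 slides.

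The mean of the immediate early list was 0.04 ± 0.16 (SD, n = 8) in cHF and -0.19 ± 0.11 (SD, n = 8) in cHF+F. The within-slide medians were between -0.63 on slide 1 and 0.08 on slide 7, and 7 of 8 were below 0. The number of genes lower at an unadjusted p under 0.05 was 9 without cHF+F mouse 1, 8 without cHF+F mouse 2 and 8 without slides 1 to 3.

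**Figure D4:**
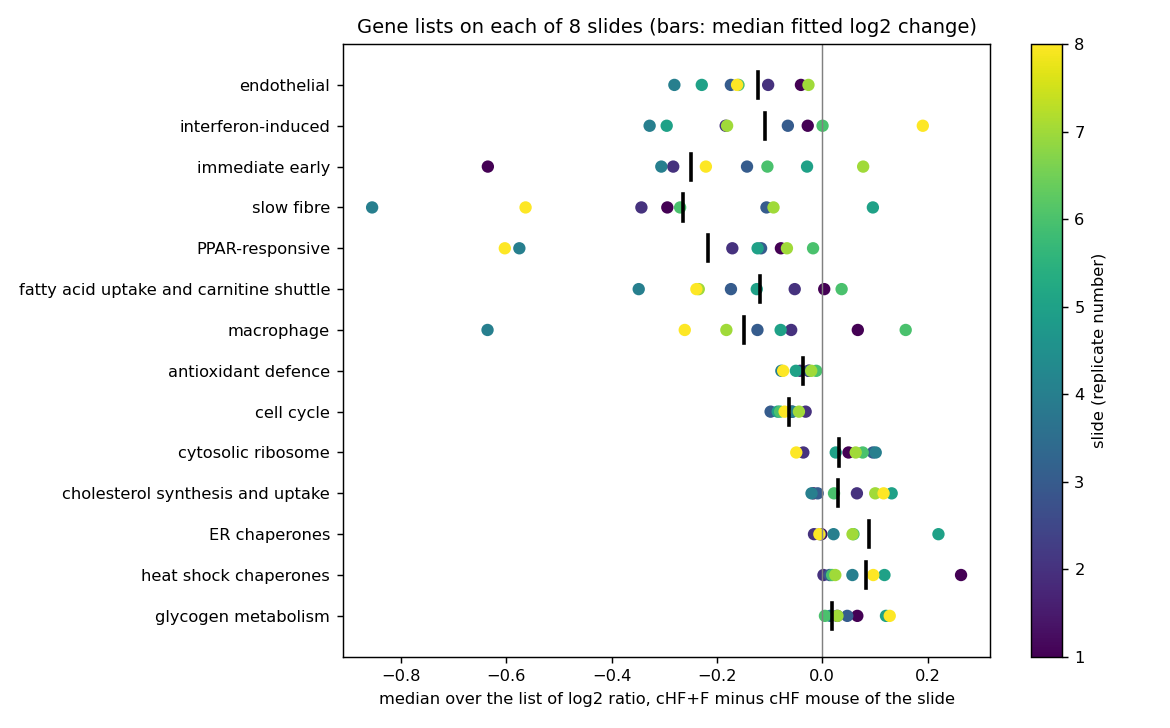
Median difference in log2 ratio between the cHF+F and the cHF mouse on each of 8 slides (points, coloured by slide) for 14 gene lists, with black bars at the median fitted difference. Points of the endothelial, PPAR-responsive, antioxidant and cell cycle lists are below 0 on 8 of 8 slides, and those of heat shock chaperones and glycogen metabolism above 0 on 8 of 8.

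Genes of the slow, oxidative fibres were lower in cHF+F in most but not all mice. Of 14 listed genes 12 were tested, 11 had a value below 0, 7 were lower at an unadjusted p under 0.05 and 1 was higher, with a median of -0.26. Tnni1, the slow troponin I, lay between -0.32 and 0.97 with a median of 0.06 in cHF mice, and between -1.59 and 0.55 with a median of -0.75 in cHF+F mice, with overlapping groups. The study picked Myh6, Myh7 and Tnnc1 for follow-up from these same arrays, so their values here are not independent evidence. The difference of Tnni1, -0.81 (SE 0.25, adjusted p = 0.196), was accompanied by -0.70 for Tnnc1, the slow troponin C, -0.75 for Myh6 and -0.80 for Myh7, which encode the cardiac and slow myosin heavy chains. Myh6 and Myh7 are near-identical neighbours on chromosome 14, so their probes may share signal. In Cy5 alone Tnni1, Tnnc1 and Myh6 kept differences of -0.91, -0.81 and -0.85, whereas Myh7 had -0.23 there and a difference of 0.54 in the reference channel. Myl3, a slow myosin light chain, was higher by 0.13 and was named after its value had been seen.

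The mean of the slow fibre list spread from -0.88 to 0.27 among cHF+F mice and from -0.25 to 0.55 among cHF mice. Within slides the median was 0.10 on slide 5 and between -0.85 and -0.09 on the others. Leaving out slides 1 to 3 left 2 genes lower at an unadjusted p under 0.05, and leaving out cHF mouse 4 or cHF+F mouse 2 left 4. Of the fast fibre genes 0 of 15 were lower and 1 was higher at an unadjusted p under 0.05, with a median of 0.05.

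Several genes of the Z disc and its signalling proteins had lower values in cHF+F as well. Of 27 genes of the sarcomere and Z disc, 19 had a value below 0, 9 were lower and 1 higher at an unadjusted p under 0.05, and the list had a median of -0.05, which was below 0 on 8 of 8 slides. In Cy5 alone 3 genes were lower and 0 higher, with a median of -0.11. Fhl1, a LIM protein of the sarcomere, lay between 0.18 and 1.102 in cHF mice and between -0.46 and 0.18 in cHF+F mice. These groups met at 0.18, and Fhl1 was lower on 8 of 8 slides. It differed by -0.57 (SE 0.14, adjusted p = 0.127), and by -0.27 in Cy5 alone. Csrp3, the muscle LIM protein, differed by -0.51, Ankrd2, a titin-associated ankyrin repeat protein, by -0.47, and Actn2, the α-actinin of the Z disc, by -0.24. Actc1, cardiac actin, was the higher one at 0.30 and was named after its value had been seen. Of the genes of excitation-contraction coupling, 0 of 13 were lower and 2 higher at an unadjusted p under 0.05, with a median of 0.05. Of these the calcium release channel Ryr1 was at 0.28, with 2 of 3 probes of the same sign, and Asph was at 0.30, with 1 of 2 probes of that sign and -0.21 at the other.

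PPAR-responsive genes, which fatty acids induce, had lower values in the cHF+F mice. Of 14 listed genes 13 were tested, 13 had a value below 0 and 5 were lower at an unadjusted p under 0.05, with a median of -0.22 in the ratio and -0.21 in Cy5 alone. Pdk4, the kinase that switches off pyruvate dehydrogenase, lay between -0.50 and 0.54 with a median of 0.22 in cHF mice, and between -2.21 and 0.10 with a median of -1.02 in cHF+F mice. The groups overlapped, and cHF+F was lower on 7 of 8 slides. Pdk4 differed by -1.09 (SE 0.34, 2.13-fold, adjusted p = 0.196). Acot1, an acyl-CoA thioesterase with a near-identical neighbour, differed by -0.55 (SE 0.14, adjusted p = 0.126), and Plin5, the lipid droplet protein of oxidative tissues, by -0.51 (SE 0.13, adjusted p = 0.126). Mlycd, which degrades malonyl-CoA, differed by -0.26 in the ratio and by -0.01 in Cy5 alone. The study picked Pdk4, Acot1, Scd1 and Trib3 for follow-up from these same arrays, so their values here are not independent evidence.

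The mean of the PPAR-responsive list was 0.00 ± 0.14 (SD, n = 8) in cHF and -0.31 ± 0.26 (SD, n = 8) in cHF+F. The within-slide median was below 0 on 8 of 8 slides, but it was -0.58 and -0.60 on slides 4 and 8 and between -0.17 and -0.02 on the others. The mean of the cHF+ROSI mice was -0.22 ± 0.17 (SD, n = 8), and 3 of 13 genes were lower in cHF+F than in cHF+ROSI at an unadjusted p under 0.05, beside 6.34% of all genes. The median of the list in this comparison was -0.07.

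Genes of fatty acid uptake and the carnitine shuttle followed the same direction. Of 12 genes 10 had a value below 0 and 5 were lower at an unadjusted p under 0.05, with a median of -0.12 in the ratio and -0.13 in Cy5 alone. Cpt2, the inner carnitine palmitoyltransferase, lay between -0.29 and 0.37 with a median of 0.09 in cHF mice, and between -0.49 and 0.11 with a median of -0.19 in cHF+F mice. These groups overlapped widely and yet cHF+F was lower on 8 of 8 slides. Cpt2 differed by -0.24 (SE 0.06, adjusted p = 0.123). Cd36, the fatty acid transporter of the membrane, differed by -0.35, Acsl1, which activates fatty acids, by -0.30 and Fabp3, the fatty acid binding protein of muscle, by -0.31, of which only -0.06 was found in Cy5 alone. Of 15 enzymes of mitochondrial β-oxidation 13 had a value below 0, but 1 was lower at an unadjusted p under 0.05. This was Etfdh, the link of β-oxidation to the respiratory chain, at -0.20 in the ratio and 0.06 in Cy5 alone. In Cy5 alone 8 of the 15 enzymes had a value below 0 and 0 were lower at an unadjusted p under 0.05. The median of the list was -0.08 in the ratio, -0.02 in Cy5 alone and 0.10 in the reference channel.

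Lipid synthesis was lower for single genes but not as a group. Scd1, the stearoyl-CoA desaturase, lay between -0.43 and 1.27 with a median of 0.30 in cHF mice, and between -1.47 and 0.53 with a median of -0.76 in cHF+F mice. The groups overlapped, with cHF+F lower on 8 of 8 slides, and Scd1 differed by -0.998 (SE 0.23, adjusted p = 0.12). Srebf1, which encodes SREBP-1, differed by -0.25, and Fads1, the desaturase that forms long-chain PUFA, by 0.21 in the opposite direction. The list of fatty acid synthesis and desaturation had 2 of 11 genes lower and 1 higher at an unadjusted p under 0.05, with a median of 0.01. Of 12 genes of triglyceride synthesis and lipolysis 3 were lower and 1 was higher, among them Dgat2, the last enzyme of triglyceride synthesis, at -0.34, the lipase Pnpla2 at -0.18, which was at 0.04 in Cy5 alone, and Lpin1, a phosphatidate phosphatase, at 0.25. Of 22 genes of cholesterol synthesis and uptake, the targets of SREBP-2, 0 were lower and 4 higher at an unadjusted p under 0.05, with 8 values below 0 and a median of 0.03. Of these Hsd17b7 and Sqle, enzymes of the pathway, were both at 0.24. Adipocyte markers, whose signal depends on fat between the fibres, had 1 of 9 genes lower and a median of -0.09, with list means from -1.06 to 0.79 among the cHF+F mice. The part of adipocytes in Scd1 was not tested.

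Among the genes that were higher in cHF+F, Nmrk2 differed most. Nmrk2, the nicotinamide riboside kinase of muscle, lay between -1.29 and -0.05 with a median of -0.55 in cHF mice, and between -0.57 and 0.71 with a median of 0.42 in cHF+F mice. The groups overlapped, and cHF+F was higher on 8 of 8 slides. The difference was 0.81 (SE 0.17, 1.75-fold, adjusted p = 0.105) in the ratio and 1.02 in Cy5 alone. Nampt, the enzyme of the NAD salvage pathway, was higher by 0.25, whereas Naprt and Nadsyn1, which make NAD from nicotinic acid, were lower by 0.19 and 0.15. Over the alternative settings of the processing Naprt ran from -0.27 to -0.03, and Nadsyn1 from -0.17 to -0.11. The NAD list as a whole had 3 of 13 genes lower and 2 higher at an unadjusted p under 0.05 and a median of -0.01, whose sign depended on the processing.

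In polyamine synthesis, the decarboxylase genes Amd1 and Amd2, near-identical copies at neighbouring sites on chromosome 10, were higher by 0.32 and 0.51, while Paox, which degrades polyamines, was lower by 0.14. Amd2 had values for 7 of the 8 cHF mice. In glycogen metabolism 0 of 14 genes were lower and 2 higher at an unadjusted p under 0.05, with a median of 0.02. These were Stbd1, which tethers glycogen to membranes (0.64, SE 0.16, adjusted p = 0.126), and Ppp1r3c, the glycogen-targeting subunit of protein phosphatase (0.38, SE 0.15, adjusted p = 0.301). Stbd1 lay between -0.47 and 0.37 in cHF mice and between -0.02 and 1.26 in cHF+F mice, with overlapping groups. Trib3, a pseudokinase that inhibits AKT and is induced by ATF4, was at 0.61, while the ATF4-responsive list had 1 of 15 genes higher and 1 lower at an unadjusted p under 0.05 and a median of 0.02. Cebpb, given above with a lower value in cHF+F, belongs to this list too. In the list of AMPK and PPAR coactivators 4 of 19 genes were higher and 2 lower, with Prkag3, the muscle subunit of AMPK, at 0.39, Ppargc1a, the coactivator PGC-1α, at 0.28 and Prkaa1, a catalytic AMPK subunit, at -0.12. In Cy5 alone 1 of the 19 was higher and 2 were lower at an unadjusted p under 0.05.

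Chaperones had mostly higher values in cHF+F. Of 19 chaperones of the endoplasmic reticulum 12 had a value above 0 and 2 were higher at an unadjusted p under 0.05, with a median of 0.09, and of 20 heat shock chaperones 13 had a value above 0, 4 were higher and 1 was lower, with a median of 0.08. Within slides the median of the endoplasmic reticulum list was below 0 on 4 of 8 slides and ran from -0.02 to 0.22. That of the heat shock list was above 0 on 8 of 8 slides, between 0.0023 and 0.26. Hspa5, the chaperone BiP of the endoplasmic reticulum, lay between -0.32 and 0.39 with a median of -0.15 in cHF mice, and between -0.04 and 0.72 with a median of 0.13 in cHF+F mice. It overlapped between the groups, was higher on 8 of 8 slides and differed by 0.30 (SE 0.07, adjusted p = 0.121). Sdf2l1, its partner, was at 0.22, Hspb8, a small heat shock protein, at 0.26 and Hspa8, the constitutive cytosolic chaperone, at 0.30. The ER stress response element, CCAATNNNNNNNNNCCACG, a motif of promoters of ER chaperones, was searched in the same way. It was present in 0.137% of 27025 promoters and in 8 of 17 ER chaperone genes with a promoter (47.1%). It was found in 1 of 2 of the genes with an unadjusted p under 0.05 and in 7 of 15 of the other tested genes. The promoter of Hspa5 is shown because this gene had the smallest p-value of the list and a match, which is in capitals.
Hspa5, chr2:34771840-34772089, plus strand: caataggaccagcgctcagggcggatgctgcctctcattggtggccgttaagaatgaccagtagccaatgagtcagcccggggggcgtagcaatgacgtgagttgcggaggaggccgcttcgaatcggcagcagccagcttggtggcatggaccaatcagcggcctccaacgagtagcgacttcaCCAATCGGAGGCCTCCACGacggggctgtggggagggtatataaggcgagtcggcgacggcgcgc

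Genes of glycolysis and cytosolic ribosomal proteins had mostly higher values in cHF+F. Of all genes 53.4% had a value below 0, and 7.67% were lower and 5.08% higher at an unadjusted p under 0.05. Of 18 genes of glycolysis and the glycerophosphate shuttle 14 had a value above 0, with a median of 0.12. At an unadjusted p under 0.05, 2 were higher (11.1%) and 1 lower (5.56%), and in Cy5 alone 2 and 0. The muscle enzymes Pgam2 and Pgk1 were at 0.23 and 0.19. Cytosolic ribosomal proteins had 8 of 82 genes higher (9.76%) and 1 lower, with 63 of 82 above 0 and a median of 0.03. In Cy5 alone 31 of the 82 had a value below 0, and 5 were higher and 0 lower at such a p. Mitochondrial ribosomal proteins had 7 of 78 higher (8.97%) and 1 lower, among them Mrpl54 at 0.20. In Cy5 alone 3 of the 78 were higher and 0 lower. In the respiratory chain and ATP synthase 4 of 77 genes were higher (5.19%) and 2 lower (2.6%), with Cox6a2, the muscle form of a subunit of cytochrome oxidase, at 0.29. The share of higher genes was near that of all genes. In Cy5 alone 0 of the 77 were higher and 3 lower. Antioxidant genes had 21 of 28 values below 0 and 3 lower at an unadjusted p under 0.05 (10.7%), including Cat, the peroxisomal catalase, at -0.26. In Cy5 alone 16 of the 28 had a value below 0 and 1 was lower at such a p. The cell cycle list had 13 of 17 values below 0, with 2 lower (11.8%) and 1 higher (5.88%). Of 48 tested collagens, laminins and other matrix genes 2 were lower and 0 higher, a share below that of all genes. Insulin signalling had 1 of 24 genes lower and 3 higher (12.5%). Of other lists, translation initiation had 2 of 51 lower and 4 higher, the proteasome 1 of 38 lower and 3 higher, autophagy and the lysosome 2 of 23 lower and 0 higher, the circadian clock 1 of 18 in each direction, and the TCA cycle 0 of 18 in either.

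Hepatocyte markers, which muscle should not express, were higher in cHF+F by a median of 0.31 and by 0.48 in Cy5 alone. Of 16 tested genes 14 had a value above 0 and 0 reached an unadjusted p under 0.05. The list mean was between -1.84 and -0.16 in cHF mice and between -1.16 and 0.61 in cHF+F mice, and within slides the median ran from -0.68 on slide 5 to 1.21 on slide 1. The part of hepatocyte RNA in the other values was not tested.

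Because a ratio could also move through the Cy3 signal of the pool, the same fit was made in Cy5 alone. There 0 of 10566 genes were called (0%), and 446 were lower (4.22%) and 249 higher (2.36%) at an unadjusted p under 0.05. Of the 1347 genes with such a p in the ratio, 1244 had the same sign in Cy5 alone and 463 passed there as well. Since Cy5 is part of the ratio and these genes were picked by the ratio, much of this agreement is built in. In the reference channel, which held the same RNA on every array, 0 genes were called (0%) and 59 (0.558%) had a lower and 83 (0.786%) a higher value on cHF+F arrays at an unadjusted p under 0.05. Of the named genes, Kcnk6, Trim30a, Pnpla2 and Etfdh changed sign between the ratio and Cy5 alone.

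**Figure D5:**
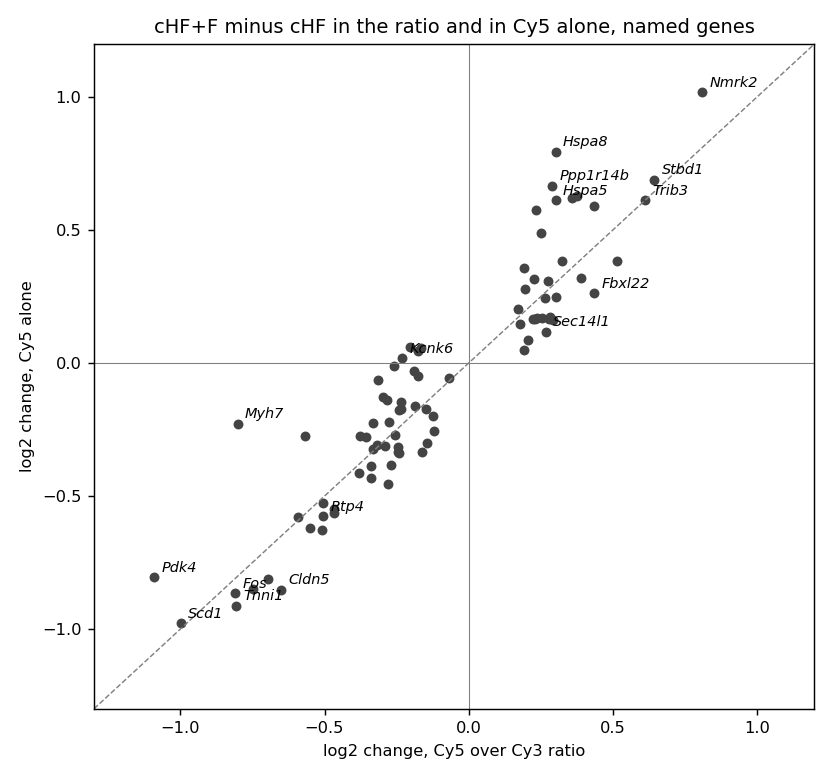
Difference of cHF+F minus cHF in log2 units for the genes named by rule, in the Cy5 over Cy3 ratio on the x axis and in Cy5 alone on the y axis, with a dashed line of equality and labels at 16 genes. Most points lie near the line, Hspa8 and Ppp1r14b lie above it, and Myh7, at -0.80 in the ratio, lies at -0.23 in Cy5 alone.

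To see where the cHF+F mice differed from the cHF+ROSI mice, both groups were compared directly. Here 0 genes were called (0%), and 670 were lower (6.34%) and 754 higher (7.14%) in cHF+F at an unadjusted p under 0.05. Srebf1, at -0.54, and Fbxl22, at 0.41, came closest to a call, both with an adjusted p of 0.069. Scd1 was lower than in cHF+ROSI by 0.98 and Csrp3 by 0.68, and Nmrk2 was higher by 0.71, each with an adjusted p of 0.12. Pdk4, in contrast, was only 0.22 lower than in cHF+ROSI (adjusted p = 0.82). Of the endothelial genes 11 of 35 were lower and 0 higher at an unadjusted p under 0.05, with a median of -0.08, and of the immediate early genes 11 of 30 were lower and 2 higher. Glycolytic genes were higher in 9 of 18 cases, respiratory chain genes in 22 of 77 and fast fibre genes in 7 of 15, with medians of 0.19, 0.09 and 0.15. Mouse 3 of cHF+ROSI had the lowest mean of its group in the fast fibre list, at -0.86 beside -0.06 to 0.39 in the others. Without it, an omission chosen after seeing the data, these counts were 4, 11 and 5, and those of lower endothelial and immediate early genes 11 and 10. The glycolytic count was 6 without cHF+ROSI mouse 1 or 2, and the respiratory count was 14 without mouse 2 and 15 without mouse 4. Without mouse 1 or 2 the immediate early count was 7. With no replicate block the higher genes were 3, 7 and 0 in these lists, and the lower endothelial and immediate early genes 7 and 8.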

How the data were processed

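Total RNA of the gastrocnemius of single mice was labelled with Cy5 and hybridised with a Cy3-labelled pool of all animals on 4 x 44K Agilent whole genome arrays. The pool also contained samples of a group on a higher rosiglitazone dose whose arrays do not enter the analysis. The deposited scanner files, per the file headers, hold spot and background intensity values of both channels on a linear scale, quantified by Feature Extraction version 10.5.1.1, while the submitters' processing notes give version 10.5.5.1. All arrays were scanned on 1 day. The authors also deposited a table of normalized log2 values with 20721 rows for 19387 probes, in which dim spots had been removed. Of its columns 16 were used for an alternative and 8, which match no group analysed here, were not used.

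Median spot signals were background-corrected (normexp, offset 50), log2 ratios were normalized by loess within each array (span 0.3), and replicate spots were averaged. Flagged spots were set to missing. A kept probe had values on at least 4 arrays in each group and had a mean signal to background of at least 2 in both channels, which left 15958 of 41174 probes. Accessions matched to the RefSeq gene table named 12577 of them, and 970 had no symbol. Probe coordinates are those of the scanner files (mm8, NCBI build 36). Promoters come from RefSeq (GRCm38.p6).

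The 3 groups were fitted with limma version 3.58.1 in R version 4.3.3 (data.table version 1.17.8), two-sided, over 24 arrays with the slide as a fixed block. Same-numbered arrays share a slide. The deviations of cHF and cHF+F arrays of the same slide correlated at -0.11 to 0.64, over 0.1 on 6 of 8 slides, against a median of -0.05 for arrays of different slides. Arrays of a group correlated at 0.840 to 0.997 in raw log2 Cy5 signal, and no pair was identical. Each array is a separate mouse. The mice were kept in pairs, but the labels do not tell which shared a cage, so the model treats them as independent. The number of arrays limits the precision. In Cy5 alone and Cy3 alone, signals were quantile-normalized between arrays.

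Genes were named when called, when differing by 1.5-fold at an unadjusted p under 0.05, when among the 10 smallest p-values in a direction, or when among up to 4 genes of a list with the smallest p under 0.05, and the defining genes of lists were added. Not all of these are printed. Of 1366 list entries 15 are not on the array. Members and lists were chosen with earlier results of these data known. The fit was tested on simulated data. Alternatives were other blocks, filters, background corrections and normalizations, array weights, the methods' t-test, the deposited table, and the omission of slides or single arrays, of which that of cHF+ROSI arrays was added after seeing the data. A fit of the deposited table with the slide block was not run, since its columns carry no replicate number.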

Additional observations from a re-analysis of the deposited data

Results flagged for a closer look

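In 8 of 180 groups of 7 or 8 mice (4.44%), taken over the 90 genes examined and both diets, a single mouse lay far from the others of its group by Dixon's test, where chance gives about 5%. In cHF these were the log2 ratios of Ifit3 in mouse 2 (0.398, the next at 0.181), Med26 in mouse 3 (0.204, the next at -0.144), Hspa5 in mouse 1 (0.386, the next at -0.0346), Pgk1 in mouse 2 (0.215, the next at 0.0227) and Myl3 in mouse 2 (-0.319, the next at 0.0578). In cHF+F they were Cd36 in mouse 8 (-1.23, the next at -0.465), Hspb8 in mouse 1 (0.393, the next at 0.00686) and Ppargc1a in mouse 2 (0.565, the next at 0.0924).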

How the results depend on the processing

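The number of called probes, 6, was 0 with no replicate block, in the 16 arrays alone, in Cy5 alone, with median centring, by the methods' t-test, without slides 1 to 3 and in the deposited table, 1 with Feature Extraction's processed signals, 10 without background correction, 20 with a random block and 38 without a filter. Without single arrays it was 0 to 9, with 0 without cHF+F mouse 4, 1 without cHF mouse 2 or 7 or cHF+F mouse 2 or 5, 2 without cHF mouse 3 or 4 and 3 without cHF mouse 5. Cldn5 kept its call in 22 of 31 settings, Sec14l1 in 14, Lyl1 in 9 and Fbxl22 in 9 of 30, with the direction unchanged in each.

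At an unadjusted p under 0.05, 1028 probes were lower and 905 higher. With no replicate block these were 639 and 455, in Cy5 alone 541 and 409, with median centring 211 and 74, without a filter 2774 and 2471, with a stricter filter 625 and 526, and from the deposited values 1879 and 517. The higher probes were 543 with the processed signals and 547 by the methods' t-test. The reference channel had 88 lower and 156 higher probes, and 8 and 71 with no replicate block. Against cHF+ROSI these were 866 and 1228, and 423 and 642 with no replicate block, with 0 called in both. Without single cHF+ROSI arrays they were 706 to 994 and 961 to 1428, with 0 to 3 called. The higher fast fibre, glycolytic and respiratory genes (7, 9 and 22) were then 5 to 9, 4 to 12 and 11 to 31, and the lower endothelial and immediate early genes (11 and 11) 9 to 15 and 7 to 12.

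Of lower genes, the endothelial list (16) had 6 with median centring and 7 in the deposited table. The interferon-induced list (12) had 4 with median centring and 6 with the stricter filter. The immediate early list (14) had 9 in Cy5 alone, 8 with median centring and 8 without slides 1 to 3. The slow fibre list (7) had 2 without slides 1 to 3 and 4 in the deposited table. The PPAR-responsive list (5) had 3 in Cy5 alone and with median centring. The fatty acid uptake list (5) had 3 with no replicate block, in Cy5 alone and with array weights, 2 by the methods' t-test and 0 in the deposited table. Without single arrays these lists had 12 to 18, 8 to 16, 8 to 16, 4 to 7, 4 to 7 and 3 to 5 genes, and the last had 3 without cHF mouse 3, 5 or 8 or cHF+F mouse 2, 4, 7 or 8. Their medians stayed below 0 in all 31 settings.

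Signs turned in Cy5 alone for Kcnk6 (0.019), Trim30a (0.058), Pnpla2 (0.044) and Etfdh (0.059), and with the processed signals for Kcnk6 (0.11) and Idi1 (-0.022). The NAD median, -0.033 to 0.013 without single arrays, was above 0 with the processed signals (0.015), mean signals (0.0032), the stricter filter (0.0037), without cHF mouse 8 (0.0051) or cHF+F mouse 8 (0.013) and in the deposited table (0.040). The glycogen median, -0.0018 to 0.040 without single arrays, was below 0 with median centring (-0.021) and without cHF mouse 5 (-0.0018). The cause of these changes was not tested.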
